A study of Mus musculus and Homo sapiens with 18 samples.

Results

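Expression of 10 classical transcriptional targets of p53 was followed in 18 RNA-seq libraries in which Quaking (Qk in mouse, QKI in human), an RNA-binding protein of the STAR family, was deleted in 3 systems. The 10 genes were Cdkn1a, Ccng1, Mdm2, Bax, Bbc3, Trp53inp1, Phlda3, Sesn2, Zmat3 and Gdf15, found by their mouse symbols in the lens and NLPC tables and by the upper-case human symbols in the HLE-B3 table. All 10 were listed in each table, which held 46882 genes for the lens, 54838 for the NLPCs and 60880 for HLE-B3. Counts were high enough to be tested for 10 of them in the lens, 9 in the NLPCs (all but Gdf15) and 10 in HLE-B3.

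The lens libraries came from dissected lenses at P17-19, 3 of Ctrl mice (Nestin-CreERT2; QkL/+) and 3 of Qk-iCKO mice (Nestin-CreERT2; QkL/L), all given tamoxifen at P7 and P8. The controls therefore carry the Cre, 1 floxed allele and the drug as well, and only cells in which the Nestin promoter drove Cre can have lost exon 2 of Qk. NLPCs are lens progenitor-like cells derived in culture from neural stem cells of P1 brains of Nestin-CreERT2; QkL/L mice, through 6 days with Noggin and 12 days with bFGF, BMP4 and BMP7. Of these, 3 libraries were labelled WT and 3 Qk-/-, the latter treated 2 times with 100 nM 4-hydroxytamoxifen. Whether WT NLPCs received a vehicle is not given in the sources used here. HLE-B3 is a line of human lens epithelial cells immortalized with a virus carrying the SV40 large T antigen, a protein that binds p53. Its 3 QKI KO libraries came from a puromycin-selected pool of cells transduced with a CRISPR-Cas9 lentivirus, and the vector in the 3 WT libraries is not given. The study describes its animal and cell line replicates in general as independent and biological, but how the NLPC and HLE-B3 libraries were separated, as derivations, cultures or wells, is not spelled out. The p-values therefore measure the spread between these libraries, part of which may be technical.

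p53 is a transcription factor that is held at a low level by the ubiquitin ligase Mdm2 and accumulates when DNA is damaged or other stresses act on a cell. It then binds pairs of a decamer motif near its target genes and raises their transcription. Its targets stop the cell cycle, promote cell death, alter metabolism and, through Mdm2, lower p53 again. Several of them also respond to other regulators, Gdf15 and Sesn2 among them to the integrated stress response, the programme of translation control that acts through the factor Atf4.

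The motif that p53 binds was looked for in the windows from 250 bases before to 50 bases after each start site. The search shows where such letters stand, and it was made without regard to which members changed. A site was 2 p53 consensus decamers end to end, 20 bases in all, with at most 2 mismatches and the fixed C and G of each decamer kept. The motif is its own reverse complement, so both strands were covered. In mouse, 8 of the 10 members had RefSeq windows (GRCm38), 12 in all, and 2 of these windows held a site, 1 of Cdkn1a and 1 of Ccng1. Of all 32851 mouse windows 0.326% held one. In human, windows at the starts of GENCODE protein-coding transcripts (GRCh37) covered 10 members in 34 windows, of which 5 held a site, against 0.22% of 78714 windows. These 5 were overlapping windows of 2 members, CDKN1A and MDM2. The sites are printed below in capitals, each with the 40 bases before it in lower case, 5′ to 3′ on the strand of the gene. The first 2 were read from the RefSeq promoter table and the other two from the GRCh37 genome.
Cdkn1a, mouse, chr17:29090888-29090947, plus strand, site starting 51 bases before the start: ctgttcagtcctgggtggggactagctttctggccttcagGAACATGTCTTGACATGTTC
Ccng1, mouse, chr11:40755462-40755521, minus strand, site starting 195 bases before the start: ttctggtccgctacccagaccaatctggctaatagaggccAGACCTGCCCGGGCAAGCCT
CDKN1A, human, chr6:36644186-36644245, plus strand: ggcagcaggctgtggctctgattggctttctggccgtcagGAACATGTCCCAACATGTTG
MDM2, human, chr12:69202663-69202722, plus strand: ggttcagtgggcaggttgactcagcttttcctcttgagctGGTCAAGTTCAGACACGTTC
Both mouse sites had 1 mismatch to the consensus and both human sites had 2. The Cdkn1a and CDKN1A sites stood at upstream starts of these genes, and the windows at their downstream starts held none. The windows of Mdm2 in mouse and of Bax, Bbc3, Phlda3, Sesn2 and Gdf15 in both species, and of CCNG1, TP53INP1 and ZMAT3 in human, held no such letters, which says nothing of sites elsewhere.

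The libraries held 10319320 to 16425331 counts (lens), 28154202 to 68243360 (NLPC) or 69190864 to 81384471 (HLE-B3), so the lens has the least depth for the low genes. Levels below are CPM, a gene's counts per 1000000 counts of its library, whose size was scaled by TMM, edgeR's trimmed mean of log ratios, with 1 value for each of 3 libraries in replicate order. In the lens 11 of 12 lens markers passed the filter, in the NLPCs and in HLE-B3 5 of 12 each, with Birc7 at 0 in the NLPCs and CRYAA at 0 in HLE-B3. The targeted gene was at 120, 116 and 127 CPM in Ctrl and 100, 86.9 and 106 CPM in Qk-iCKO lenses (log2 fold change −0.31, adjusted p = 0.200). QKI fell in HLE-B3, from 263, 262 and 257 CPM to 100, 105 and 103 CPM (−1.34, adjusted p = 1.85e-11). In the NLPCs, however, Qk stood at 2675, 2444 and 2541 CPM in WT and at 3599, 3088 and 3510 CPM in the libraries labelled Qk-/- (0.41, adjusted p = 0.0270, edgeR's quasi-likelihood test). That call was lost when every gene with at least 1 count was tested (adjusted p = 0.203) and when any library other than Qk-/- library 2 was left out (adjusted p 0.0949 to 0.173). Counts over the whole gene include exons outside the deleted one, so they do not check the deletion there, and the NLPC groups are named by their labels throughout. An exchange of these labels, which was not tested, would turn every NLPC direction given below and alter every difference between NLPC and lens.

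Libraries of 1 group differed by more than counting error in all 3 systems, and each system had at least 1 library that stood apart. Qk-iCKO lens 1 had a TMM factor of 1.48, against 0.888 to 0.962 in the other 5 lenses, and its counts differed from those of Qk-iCKO lenses 2 and 3 with a chi-square per degree of freedom of 67.6 and 61.2, compared with 17.9 between lenses 2 and 3. In the NLPCs this measure was 429 and 385 for WT library 2 against WT libraries 1 and 3, which differed from each other by 24.1. It was 90.3 and 145 for library 2 labelled Qk-/- against libraries 1 and 3, which differed by 50.3. In HLE-B3 it was 34.0 and 28.1 for QKI KO library 2 against QKI KO libraries 1 and 3, which differed by 10.2.

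**Figure D1:**
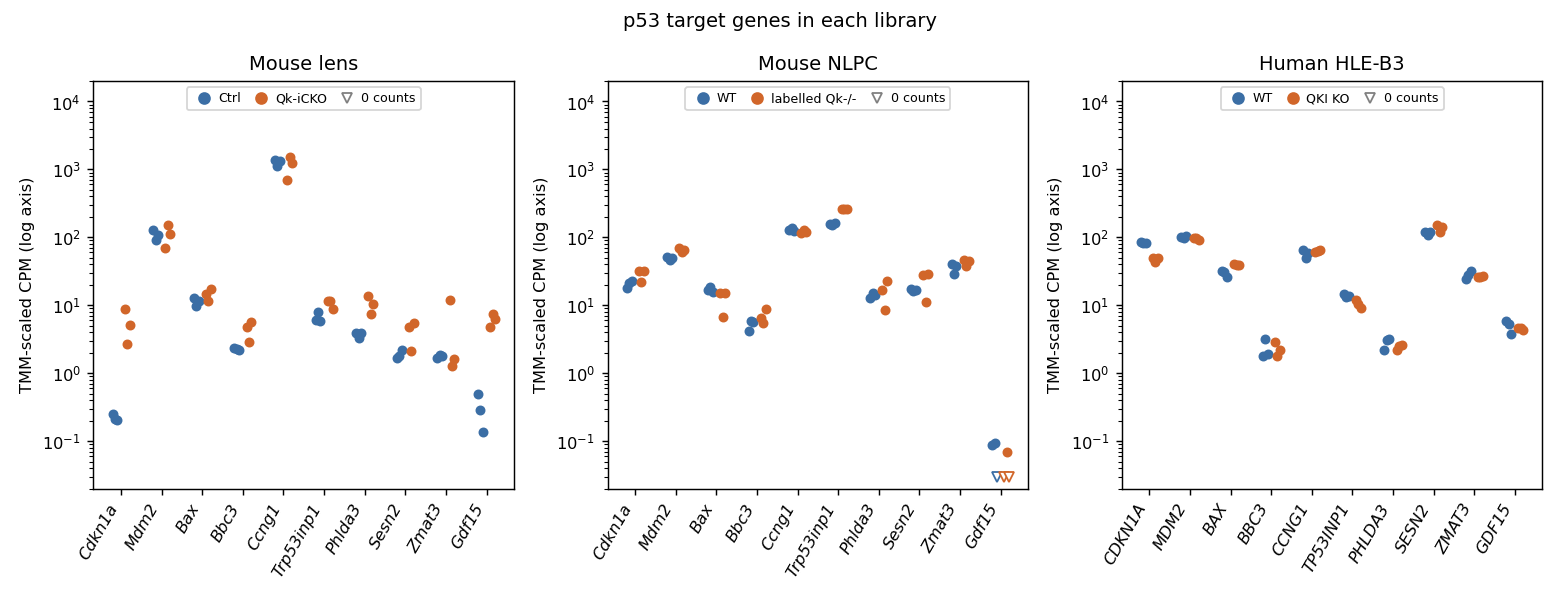
TMM-scaled CPM (log axis) of the 10 p53 target genes in each of the 18 libraries, with controls in blue, deletion libraries in orange and libraries at 0 counts as open triangles at the foot. Cdkn1a and Gdf15 lie below 0.5 CPM in all 3 Ctrl lenses and between 2.71 and 8.77 CPM in the Qk-iCKO lenses, while most other pairs of groups lie close together.

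In the lens, 3 of the 10 targets were higher in Qk-iCKO than in Ctrl and none was lower (edgeR's quasi-likelihood test, Benjamini-Hochberg adjusted p under 0.05). These were Cdkn1a, Gdf15 and Phlda3. Over all 12201 genes tested, 8.38% were called higher and 3.88% lower. The groups did not overlap for 5 of the 10 members, all of them higher in Qk-iCKO, against 35.3% of all genes in either direction. The median log2 fold change of the 10 was 1.06, compared with 0.0064 over all genes. Cdkn1a and Gdf15 had fewer than 10 counts in each Ctrl lens and entered the fit only through the Qk-iCKO lenses. Their calls, and their part in these counts and this median, were therefore partly set by the filter.

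Cdkn1a, which encodes the cyclin-dependent kinase inhibitor p21 that halts the cell cycle, was nearly absent from control lenses. It had 3 counts in each Ctrl library, or 0.249, 0.214 and 0.206 CPM, and 143, 28 and 50 counts in the Qk-iCKO libraries, or 8.77, 2.71 and 5.05 CPM. Every Qk-iCKO lens was above every Ctrl lens, with the largest value in Qk-iCKO lens 1, the lens that stood apart in its counts. The summed counts of 9 and 221 gave a ratio of 27.3 per scaled count, with a 95% exact interval of 14.1 to 60.5 that covers counting error only. The fitted log2 change was 4.59 ± 0.55 (SE, adjusted p = 0.00287), a value that depends on the prior count at so low a control level. Without Qk-iCKO lens 1 it was 4.07 (adjusted p = 0.00374). Leaving out any 1 library kept it called, with adjusted p between 0.00233 and 0.0228.

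Ccng1, the gene of cyclin G1, which works with the phosphatase PP2A on Mdm2, was by far the most abundant member of the lens. Its CPM was 1394, 1132 and 1320 in Ctrl and 706, 1531 and 1234 in Qk-iCKO. The groups overlapped and the log2 change of −0.15 ± 0.29 was not called (adjusted p = 0.785). It lay above 0 without Qk-iCKO lens 1, the lowest of the 6, and with total counts alone. Per kilobase of merged exon, Ctrl lenses held 365 CPM of Ccng1, 21.7 of Mdm2, 7.20 of Bax, 2.36 of Phlda3, 1.07 of Bbc3 and 1.03 of Trp53inp1. Below these stood Sesn2 at 0.541, Gdf15 at 0.166, Zmat3 at 0.154 and Cdkn1a at 0.0627. Neighbours in this order had ranges over the 3 lenses that did not meet, apart from Bbc3 with Trp53inp1 and Gdf15 with Zmat3.

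Mdm2, the ligase that marks p53 for degradation, did not follow Cdkn1a. It was at 130, 91.3 and 110 CPM in Ctrl and 69.6, 149 and 113 CPM in Qk-iCKO. Both the lowest and the highest library were Qk-iCKO lenses, and the log2 change was 0.0013 ± 0.28 (adjusted p = 0.998), with a sign that turned with the settings.

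Phlda3, an inhibitor of Akt signalling through its pleckstrin homology domain, rose. Ctrl lenses had 3.89, 3.28 and 3.84 CPM and Qk-iCKO lenses 13.7, 7.36 and 10.3 CPM, so that the lowest Qk-iCKO value was above all controls. The log2 change was 1.52 ± 0.25 (adjusted p = 0.00979). Qk-iCKO lens 1 was again the highest, and without it the change was 1.26 (adjusted p = 0.0154). The call was lost by a small margin without Ctrl lens 2 (log2 change 1.43, adjusted p = 0.0506).

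The other apoptosis genes lay above 0 without passing the test. Bbc3 encodes Puma, a BH3-only activator of cell death, and stood at 2.32, 2.28 and 2.20 CPM in Ctrl and 4.72, 2.90 and 5.76 CPM in Qk-iCKO. Its groups did not overlap (0.98 ± 0.29, adjusted p = 0.0727), and it was called when Qk-iCKO lens 2 was left out (adjusted p = 0.0302). Trp53inp1, a nuclear stress protein that modifies p53 activity and autophagy, was at 6.13, 7.98 and 5.90 CPM in Ctrl and 11.7, 11.5 and 8.89 CPM in Qk-iCKO. Here too the groups stood apart (0.68 ± 0.19, adjusted p = 0.0601), and in the fit with a replicate block the change was called (0.68, adjusted p = 0.0404). That block pairs the lenses by their numbers, a pairing taken from these same data and not from the labels. Bax, which permeabilizes the mitochondrial outer membrane, had 12.7, 9.77 and 11.6 CPM in Ctrl and 14.7, 11.7 and 17.4 CPM in Qk-iCKO. The groups overlapped (0.36 ± 0.19, adjusted p = 0.246).

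Sesn2, a leucine sensor that restrains mTORC1 and protects against oxidants, was at 1.66, 1.78 and 2.20 CPM in Ctrl and 4.85, 2.13 and 5.45 CPM in Qk-iCKO. Qk-iCKO lenses 1 and 3 were high and lens 2 lay within the controls (1.14 ± 0.38, adjusted p = 0.0961). The change was called without lens 2 (1.44, adjusted p = 0.0233) and when every gene with at least 1 count was tested (1.12, adjusted p = 0.0498). Zmat3 encodes a zinc finger protein that binds RNA, and its CPM was 1.66, 1.85 and 1.78 in Ctrl and 12.03, 1.26 and 1.62 in Qk-iCKO. Its log2 change of 1.53 ± 0.81 (adjusted p = 0.264) came from Qk-iCKO lens 1, and without that lens it was −0.30 (adjusted p = 0.620).

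Gdf15, a secreted cytokine of the TGF-beta superfamily that acts on the hindbrain receptor Gfral, was the other member that rose from almost nothing. Ctrl lenses had 6, 4 and 2 counts (0.497, 0.285 and 0.137 CPM) and Qk-iCKO lenses 77, 77 and 62 counts (4.72, 7.45 and 6.26 CPM). The 3 Qk-iCKO values were close to each other and far above the controls. The ratio of summed counts was 20.0 (95% exact counting interval 11.2 to 39.3) and the fitted log2 change was 4.31 ± 0.42 (adjusted p = 0.00134). It stayed called with each library left out.

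**Figure D2:**
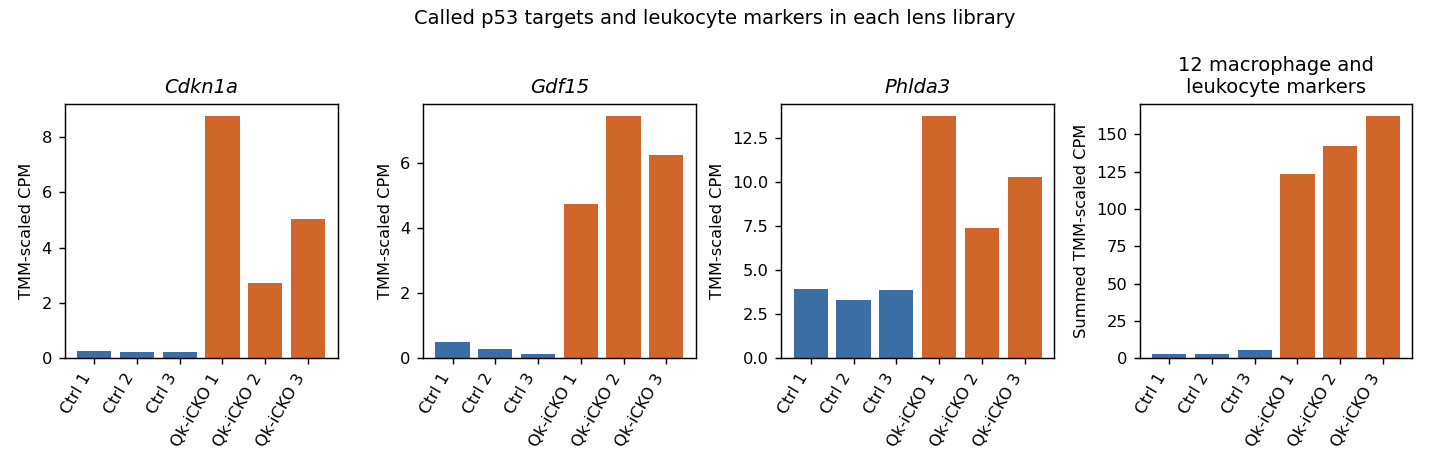
TMM-scaled CPM of the 3 called p53 targets in each lens library (bars from 0, Ctrl in blue and Qk-iCKO in orange), and the summed CPM of 12 macrophage and leukocyte markers in the same libraries. Every Qk-iCKO bar is above every Ctrl bar in all 4 panels, and the marker sum is 2.49 to 5.22 in Ctrl and 123 to 162 in Qk-iCKO.

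Genes of several other cell types moved with the same groups. Of the 12 macrophage and leukocyte markers, 10 were tested and 10 were higher in Qk-iCKO lenses, among them the complement gene C1qa (0.331, 0.570 and 0.618 CPM against 23.4, 41.3 and 43.5 CPM). Ctrl counts were 0, 0 and 4 for Tyrobp, 1, 0 and 1 for Ptprc and 4, 8 and 9 for C1qa, below the filter's minimum count of 10. Such genes could be tested only through the Qk-iCKO lenses, so 10 of 10 was partly set by the filter. With other settings 0 to 11 were called. Fibroblast markers summed to 63.7 to 79.2 CPM in Ctrl and 104 to 173 CPM in Qk-iCKO, and lens markers to 203880 to 224303 CPM and 113323 to 184006 CPM, with the lowest sum in Qk-iCKO lens 1. Vessel and blood markers summed to 7.56 to 15.2 CPM in Ctrl and 18.9 to 19.7 CPM in Qk-iCKO, with the endothelial gene Pecam1 called (2.21, adjusted p = 0.0280). The neural progenitor gene Nes, whose promoter drives the Cre, rose from 6.88, 6.49 and 4.74 CPM to 34.5, 33.5 and 14.1 CPM (2.19, adjusted p = 0.00871). It was the 1 gene called of 7 tested markers of neural stem cells, neurons and glia, of which 2 lay below 0 (median log2 change 0.25). The sums of that list overlapped, at 58.5 to 77.6 CPM in Ctrl and 77.3 to 106 CPM in Qk-iCKO. Retina and pigment epithelium markers did not follow the groups, with sums of 71.6, 519.9 and 3.09 CPM in Ctrl and 117, 35.5 and 16.6 CPM in Qk-iCKO, of which Ctrl lens 2 was far the highest. In bulk lenses fewer cells of a type and less RNA per cell cannot be told apart, and the part of these cells in the p53 target levels was not tested. The integrated stress response genes gave 4 of 9 higher (Chac1, Trib3, Atf3 and Ddit3) and none lower. Chac1, at 0 counts in every Ctrl lens, and Trib3, at 2, 1 and 0, also entered the test only through the Qk-iCKO lenses. Ddit3, a transcription factor of that response, rose from 5.14, 4.56 and 5.29 CPM to 35.4, 27.6 and 56.2 CPM (2.99, adjusted p = 0.00114). Trib3, a pseudokinase of the same programme, had no more than 0.166 CPM in Ctrl and 3.31, 1.55 and 6.46 CPM in Qk-iCKO (adjusted p = 0.00746). Their part in the changes of Gdf15 and Sesn2 was not tested either.

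The wider p53 programme gave a mixed picture in the lens. Of 36 tested genes on 4 further lists of p53 targets, 7 were called higher and 1 lower, and their median log2 change was 0.24. Over all genes 8.38% were called higher and 3.88% lower. With each library left out, 2 to 6 genes of these lists were called, and 4 to 11 with other settings. Among arrest genes Plk2, a polo-like kinase, rose from 0.746, 1.14 and 1.30 CPM to 5.77, 5.23 and 5.05 CPM (2.31, adjusted p = 0.00277), and the antiproliferative gene Btg2 rose by 0.95 on the log2 scale (adjusted p = 0.0359). In the metabolism and redox list 4 of 11 were higher and none lower, namely the ferrireductase Steap3 (3.58), the polyamine acetyltransferase Sat1 (2.20), the epoxide hydrolase Ephx1 (1.27) and the lysosomal protease Ctsd (0.89). Of 11 apoptosis genes Apaf1, the scaffold of the apoptosome, was higher (0.99, adjusted p = 0.0325) and Bid, a BH3-only protein, was lower (−0.73, adjusted p = 0.0340). None of the 8 genes of repair and nucleotide supply was called by edgeR, with 1, the methyltransferase gene Mgmt, lower at an unadjusted p under 0.05 (−0.78, adjusted p = 0.0528).

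Of 9 tested controllers of p53 none was called by edgeR, and at an unadjusted p under 0.05 1 was lower. Mdm4, the partner of Mdm2, was at 0.12 on the log2 scale (adjusted p = 0.642) and the p53 phosphatase gene Ppm1d at −0.19 (adjusted p = 0.653), while Cdkn2a had at most 0.368 CPM and was not tested. Of 16 tested cell cycle genes that p53 lowers through p21, none was called by edgeR, and none had an unadjusted p under 0.05. Their summed level was 42.4 to 66.4 CPM in Ctrl and 43.3 to 58.3 CPM in Qk-iCKO.

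**Figure D3:**
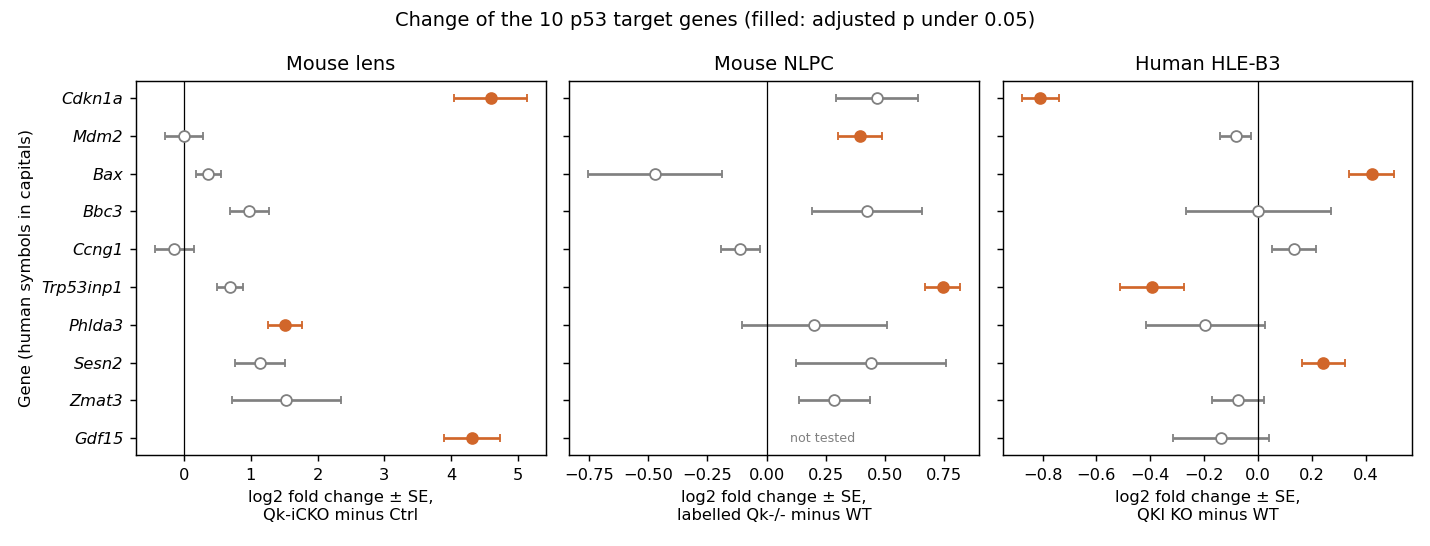
Fitted log2 fold change of each p53 target gene with its SE (deletion minus control, each panel with its own horizontal scale), filled where the adjusted p was under 0.05. The filled points lie at 4.59, 4.31 and 1.52 in the lens, at 0.40 and 0.74 in the NLPCs, and on both sides of 0 in HLE-B3.

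In the NLPCs, 2 of 9 tested members, Mdm2 and Trp53inp1, were higher in the libraries labelled Qk-/- and none was lower. Of all 20371 genes tested, 4.74% were called higher and 5.96% lower. The groups did not overlap for 3 members (35.2% of all genes), and the median log2 change of the 9 was 0.40 against 0.040 over all genes.

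Trp53inp1 was the most uniform change. It stood at 156, 150 and 161 CPM in WT and at 258, 258 and 264 CPM in the libraries labelled Qk-/-. The gap between the groups was many times the spread within either (0.74 ± 0.075, adjusted p = 0.00101). It was called with every library left out in turn and under every alternative. Mdm2 rose from 50.9, 47.1 and 48.9 CPM to 68.7, 59.9 and 64.5 CPM. These groups stood apart (0.40 ± 0.093, adjusted p = 0.0336), but the call was lost when any library other than Qk-/- library 2 was left out, with adjusted p between 0.106 and 0.211, and when every gene with 1 count was tested (adjusted p = 0.0950).

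Library 2 labelled Qk-/- differed from the other two for several members and had the lowest total of the 6, 28154202 counts. WT library 2 stood further from its own group over all genes, and without it 1 member was called, Trp53inp1 (0.70, adjusted p = 0.0111). Sesn2 was at 17.4, 16.4 and 16.7 CPM in WT and 28.2, 11.1 and 29.0 CPM in the libraries labelled Qk-/-. Phlda3 was at 13.0, 14.98 and 14.2 CPM in WT and 16.6, 8.51 and 23.1 CPM there. In both genes library 2 was below all WT libraries while libraries 1 and 3 were above them. Cdkn1a was at 18.2, 21.1 and 22.6 CPM in WT and 31.6, 21.7 and 31.9 CPM in the libraries labelled Qk-/-, of which library 2 lay within the controls. None of the 3 was called. The log2 change was 0.44 ± 0.32 for Sesn2 (adjusted p = 0.412), 0.20 ± 0.31 for Phlda3 (adjusted p = 0.715) and 0.47 ± 0.17 for Cdkn1a (adjusted p = 0.132). Without library 2 labelled Qk-/-, 5 members were called and all were higher. In that fit 8.18% of all 21127 genes were called higher and 9.79% lower, more than the 4.74% and 5.96% with all 6 libraries. The 5 were Sesn2 (0.77, adjusted p = 0.000637), Cdkn1a (0.63, adjusted p = 0.00437), Phlda3 (0.51, adjusted p = 0.0441), Mdm2 (0.45, adjusted p = 0.00260) and Trp53inp1 (0.75, adjusted p = 6.74e-05). Library 2 also had the highest sum of macrophage markers (17.1 CPM, against 9.28 to 12.5 CPM in the other 5 libraries), and the part of this in the member levels was not tested.

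**Figure D4:**
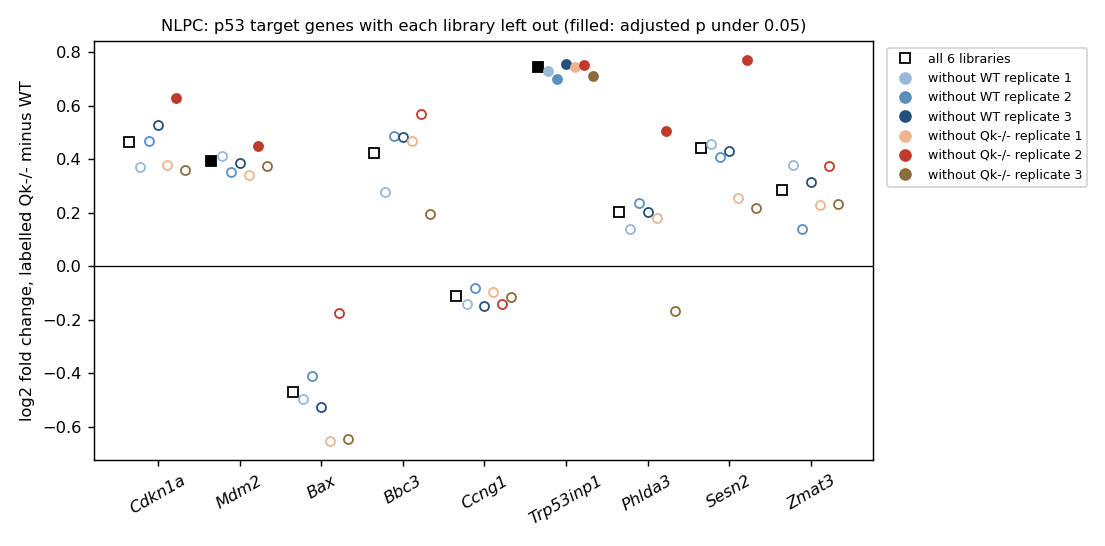
Log2 fold change of the 9 tested members in NLPCs (labelled Qk-/- minus WT) with all 6 libraries (squares) and in fits that each omit 1 library (circles), filled where the adjusted p was under 0.05. Red circles, without Qk-/- replicate 2, are filled for 5 members, whereas Trp53inp1 is filled in every fit and Bax and Ccng1 are filled in none.

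Bax was the member that lay below 0, with 16.6, 18.7 and 15.8 CPM in WT and 15.2, 6.63 and 14.9 CPM in the libraries labelled Qk-/-. The groups did not overlap, with library 2 far below the rest, and the change was not called (−0.47 ± 0.28, adjusted p = 0.329). It was −0.17 without that library. Ccng1, also below 0, was at 128, 139 and 126 CPM and 118, 127 and 118 CPM (−0.11 ± 0.083, adjusted p = 0.433).

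Zmat3 was at 40.5, 28.6 and 37.4 CPM in WT and 46.4, 38.0 and 45.5 CPM in the libraries labelled Qk-/- (0.29 ± 0.15, adjusted p = 0.270). Bbc3 was at 4.23, 5.79 and 5.72 CPM and 6.57, 5.57 and 8.91 CPM (0.42 ± 0.23, adjusted p = 0.281). Both overlapped between the groups. Gdf15 had 6, 4 and 0 counts in WT and 0, 2 and 0 counts in the libraries labelled Qk-/-, too few to be tested. Per kilobase of exon WT NLPCs held 37.2 CPM of Ccng1, 24.0 of Trp53inp1, 10.8 of Bax, 9.63 of Mdm2 and 9.01 of Phlda3, then 5.80 of Cdkn1a, 4.85 of Sesn2, 3.10 of Zmat3 and 2.47 of Bbc3. The ranges met for Mdm2 with Phlda3 and for Zmat3 with Bbc3.

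Of 40 tested genes on the further p53 target lists, 8 were higher and 1 was lower in the libraries labelled Qk-/- (median log2 change 0.16). Over all genes 4.74% were called higher and 5.96% lower. With each library left out, 3 to 12 genes of these lists were called, and 8 to 12 with other settings. Plk2 rose from 84.5, 81.6 and 90.8 CPM to 207, 204 and 215 CPM (1.28, adjusted p = 0.000242), and Gadd45a, a growth arrest and DNA repair gene, by 0.59 (adjusted p = 0.0258). Sesn1, the paralogue of Sesn2, rose by 0.63 (adjusted p = 0.00469), Sat1 by 0.62, Ephx1 by 0.83 and the adenylate kinase Ak1 by 0.53, which made 4 of 12 in the metabolism and redox list. The oxidoreductase gene Aifm2 rose by 0.96 (adjusted p = 0.0109, 1 of 11 apoptosis genes) and the translesion polymerase gene Polk by 0.49 (adjusted p = 0.0244, 1 of 7 repair genes). Btg2 was lower (−0.65, adjusted p = 0.0259), and its change differed from that in the lens (interaction −1.51, adjusted p = 0.00719).

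Of 14 controllers of p53, 1 was higher, Mdm4 (0.48, adjusted p = 0.0448), and 1 was lower, the p53 kinase gene Hipk2 (−1.12, adjusted p = 0.0141). The call of Mdm4 was lost with the replicate block (adjusted p = 0.0556), with total counts alone (adjusted p = 0.0576) and when any library other than Qk-/- library 2 was left out (adjusted p 0.0543 to 0.190). Ppm1d (−0.34, adjusted p = 0.127) and Cdkn2a (−0.27, adjusted p = 0.292) were not called. Of 18 cell cycle genes that p53 lowers through p21, 7 were lower and none was higher. They included Ccne2, which encodes a cyclin of S phase entry (−0.78, adjusted p = 0.0214), and the mitotic genes Aurka (−0.62), Birc5 (−0.61) and Aurkb (−0.60). Between 0 and 11 genes of this list were called with each library left out, and 3 to 11 with other settings. Over all genes 5.96% were called lower. The sum of the 18 was 1121 to 1258 CPM in WT and 903 to 949 CPM in the libraries labelled Qk-/-. Markers of neural stem cells, neurons and glia summed to 6670 to 7152 CPM and to 5069 to 5728 CPM, with 3 of 13 higher and 4 lower, among them the astrocyte gene Gfap (1264, 1550 and 1361 CPM against 598, 366 and 645 CPM). Lens markers summed to 194 to 196 CPM in WT and 144 to 163 CPM in the libraries labelled Qk-/-. Within that sum the crystallin gene Cryab fell from 61.3, 70.1 and 62.9 CPM to 29.6, 11.7 and 29.3 CPM (−1.45, adjusted p = 0.0232). It was the 1 lens marker called of 5 tested, of which 2 lay above 0 (median log2 change −0.028). Fibroblast markers summed to 68.8 to 79.2 CPM in WT and 33.3 to 35.3 CPM in the libraries labelled Qk-/-. Most of that sum was Pdgfra, at 68.3, 77.4 and 70.4 CPM in WT and 32.9, 24.8 and 32.2 CPM there (−1.26). It was the 1 fibroblast marker called. Of the 5 tested, 4 lay above 0 (median log2 change 1.41). The part of these marker genes in the member levels was not tested.

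In HLE-B3, 2 members were lower and 2 higher in QKI KO cells. CDKN1A and TP53INP1 fell, and BAX and SESN2 rose. Of all 19049 genes tested 17% were called higher and 16.3% lower, so 4 of 10 was near the background. For 4 members the groups did not overlap (44.6% of all genes), and the median log2 change of the 10 was −0.080, against −0.020 over all genes.

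CDKN1A fell from 84.6, 83.5 and 82.1 CPM in WT to 49.7, 42.9 and 50.2 CPM in QKI KO. All 3 QKI KO libraries were far below the WT libraries, which differed little (−0.81 ± 0.069, adjusted p = 1.66e-07). The call held without each library, with log2 changes between −0.84 and −0.74. The 50 tested genes nearest to CDKN1A on chromosome 6 had a median log2 change of −0.15. TP53INP1 fell from 14.9, 13.2 and 13.5 CPM to 12.01, 10.6 and 9.04 CPM. No QKI KO library reached a WT library (−0.39 ± 0.12, adjusted p = 0.0168), but the call was lost without WT library 1 (−0.32, adjusted p = 0.0899) or without QKI KO library 3 (−0.28, adjusted p = 0.128).

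BAX rose from 32.0, 31.0 and 25.8 CPM to 39.95, 39.7 and 39.0 CPM. The QKI KO libraries were nearly alike and above every WT library (0.42 ± 0.083, adjusted p = 0.000794), and the call held without each library. SESN2 was at 121, 108 and 120 CPM in WT and 152, 119 and 142 CPM in QKI KO. QKI KO library 2 lay below 2 WT libraries, so the groups overlapped, and the small rise (0.24 ± 0.080, adjusted p = 0.0284) was lost with total counts alone (0.18, adjusted p = 0.0747). It was also lost without WT library 2 (0.20, adjusted p = 0.127), QKI KO library 1 (0.17, adjusted p = 0.191) or QKI KO library 3 (0.23, adjusted p = 0.0827).

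**Figure D5:**
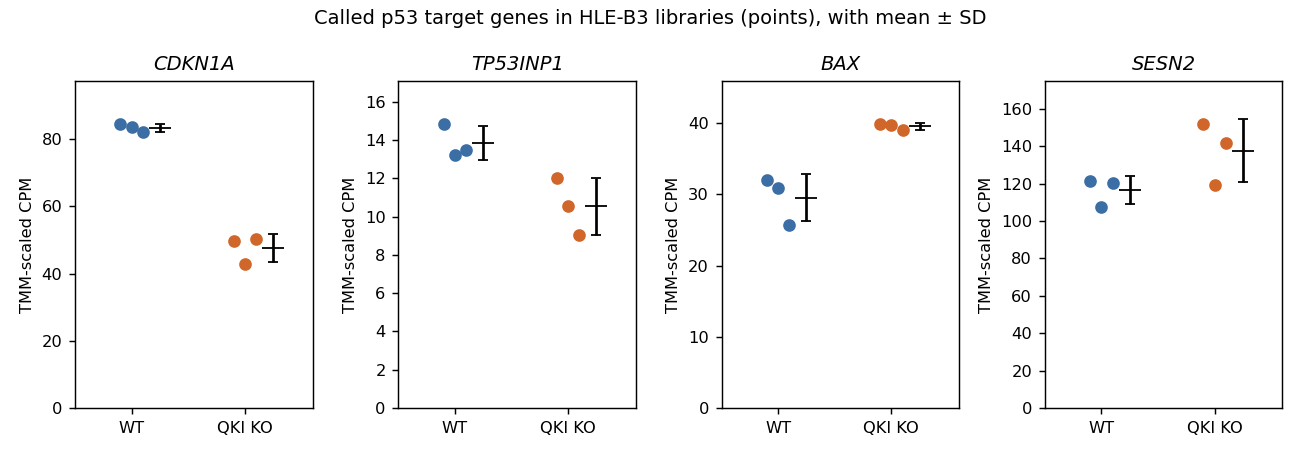
TMM-scaled CPM of the 4 called members in the 3 WT (blue) and 3 QKI KO (orange) HLE-B3 libraries, with the mean and SD of each group in black and axes from 0. CDKN1A and TP53INP1 are lower in every QKI KO library, BAX is higher in every one, and the SESN2 groups overlap.

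The other 6 members were not called. MDM2 was at 102, 98.5 and 103 CPM in WT and 96.2, 98.5 and 92.0 CPM in QKI KO (−0.084 ± 0.058, adjusted p = 0.307), and its groups were separated by less than 1 CPM. CCNG1 was at 64.8, 50.1 and 58.3 CPM and 60.8, 63.7 and 65.6 CPM (0.13 ± 0.082, adjusted p = 0.241), and it was called without WT library 1 (0.24, adjusted p = 0.0322). ZMAT3 was at 24.0, 27.4 and 32.2 CPM and 26.0, 26.4 and 27.0 CPM (−0.076 ± 0.096, adjusted p = 0.608). The WT values of CCNG1 and ZMAT3 spread more widely than the QKI KO values. GDF15 had 5.83, 5.36 and 3.72 CPM in WT and 4.68, 4.59 and 4.29 CPM in QKI KO (−0.14 ± 0.18, adjusted p = 0.619). PHLDA3 had 2.18, 3.06 and 3.19 CPM and 2.22, 2.50 and 2.62 CPM (−0.20 ± 0.22, adjusted p = 0.561), and BBC3 1.76, 3.14 and 1.94 CPM and 2.88, 1.80 and 2.16 CPM (0.00015 ± 0.27, adjusted p = 1.000). All 3 overlapped between the groups.

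Per kilobase of exon, the order of the members in WT HLE-B3 differed from that of the mouse lens, although such levels rest on different annotations. SESN2 led with 33.7 CPM, followed by CDKN1A at 27.8, CCNG1 at 18.7, MDM2 at 12.2 and BAX at 11.4. ZMAT3, TP53INP1 and GDF15 stood at 2.47, 2.45 and 2.38, and PHLDA3 and BBC3 at 0.866 and 0.716. The ranges of MDM2 and BAX met, as did those of ZMAT3 with TP53INP1, TP53INP1 with GDF15, and PHLDA3 with BBC3.

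Of 41 tested genes on the further p53 target lists, 13 were higher and 9 lower in QKI KO cells (median log2 change 0.042). Over all genes 17% were called higher and 16.3% lower. With each library left out, 18 to 24 genes of these lists were called. BTG2 fell by 1.33 on the log2 scale (adjusted p = 2.09e-05), and GADD45A (0.54), PLK2 (0.46) and the spindle gene PSRC1 (0.42) rose. In the apoptosis list 6 of 13 were higher, among them PERP, a membrane protein of cell junctions (0.60), TP53I13 (0.53) and the nuclease gene AEN (0.44), and 2 were lower, PMAIP1, which encodes the BH3-only protein Noxa (−0.44), and the death receptor gene TNFRSF10B (−0.20). Of 7 repair genes 4 were lower, namely ERCC5 (−0.84), POLK (−0.40), FANCC (−0.29) and XPC (−0.27), and POLH, a translesion polymerase gene, was higher (0.67, adjusted p = 3.36e-07). In the metabolism and redox list the tetraspanin gene CD82 fell from 13.3, 12.9 and 12.3 CPM to 3.73, 3.17 and 3.604 CPM (−1.87, adjusted p = 1.20e-08) and the glutaminase gene GLS2 fell too (−2.30), while the antioxidant gene GPX1 (0.66) and the autophagy gene DRAM1 (0.55) rose.

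Of 14 controllers of p53, 4 were higher and 2 lower. MDM4 (−0.27, adjusted p = 0.00492) and TP53BP1, a DNA damage mediator that binds p53 (−0.48, adjusted p = 1.64e-06), were lower. Higher were the ubiquitin ligase genes COP1 (0.48) and RCHY1 (0.41), CDKN2A (0.26, adjusted p = 0.0230) and the deubiquitinase gene USP7 (0.16). The groups of CDKN2A overlapped, and its call was lost with total counts alone (adjusted p = 0.0605) and without WT library 3, QKI KO library 1 or QKI KO library 3 (adjusted p 0.0910 to 0.107). PPM1D did not pass the test (−0.026, adjusted p = 0.808). Of the 18 cell cycle genes lowered through p21, 6 were higher and 3 lower, with AURKA (0.57), CCNA2 (0.54), CCNE2 (0.48) and TOP2A (0.39) among the higher and BUB1B (−0.23), PLK1 (−0.23) and CDC25C (−0.24) as the lower ones. Their sum was 3332 to 3422 CPM in WT and 3590 to 3693 CPM in QKI KO. Of the 9 integrated stress response genes 4 were higher (PSAT1, ATF4, ASNS and TRIB3, between 0.21 and 0.50) and 1, ATF3, was lower (−0.39, adjusted p = 1.14e-05). Fibroblast markers summed to 3889 to 3970 CPM in WT and 1936 to 2250 CPM in QKI KO. Most of that sum was COL1A1, at 3399, 3439 and 3494 CPM in WT and 1630, 1958 and 1807 CPM in QKI KO (−0.94). Of the 5 tested, 2 were lower, COL1A1 and COL3A1 (−1.15), and 1 was higher, LUM (0.53, adjusted p = 0.00176). The part of these markers in the member levels was not tested.

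Whether a member responded differently in the lens and in the NLPCs was asked of the interaction term when both mouse tables were fitted together. Over 16675 genes 8.53% differed. The change of Cdkn1a was lower in the NLPCs than in the lens (log2 difference −4.10 ± 0.58, adjusted p = 0.00130), a difference called under all alternatives. Its size depends on the prior count, because Cdkn1a had only 3 counts in each Ctrl lens. The term of Gdf15 also fell under the threshold, but Gdf15 had too few NLPC counts to be tested there and entered the joint fit through the Qk-iCKO lenses, so no difference is read from it. Phlda3 did not reach the threshold (−1.24 ± 0.43, adjusted p = 0.102), although it did when every gene with at least 1 count was tested (−1.27, adjusted p = 0.0308) and without library 3 labelled Qk-/- (−1.56, adjusted p = 0.0423). The remaining differences were −1.19 ± 0.83 for Zmat3, −0.76 ± 0.36 for Bax, −0.63 ± 0.52 for Sesn2, −0.47 ± 0.39 for Bbc3, 0.49 ± 0.31 for Mdm2, 0.15 ± 0.19 for Trp53inp1 and 0.14 ± 0.33 for Ccng1, with adjusted p from 0.233 to 0.872. For Trp53inp1 the NLPC change was called and the lens change was not, but the difference between them was small beside its error. No test joins the human table to the mouse tables.

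On the mouse genome (GRCm38) the members called in a mouse system lie at chr17:29090976-29100727 (Cdkn1a), chr8:70629393-70632456 (Gdf15), chr1:135766119-135769136 (Phlda3), chr4:11156431-11174379 (Trp53inp1) and chr10:117688875-117710758 (Mdm2). On the human genome (GRCh37) CDKN1A lies at chr6:36644237-36655114, BAX at chr19:49458072-49465055 and SESN2 at chr1:28586029-28609002. Counts cover all exons of each gene. Some members share exon bases with other annotated genes, and reads there may have been split or dropped in counting. In the mouse annotation Bax shares 192 exon bases with Gm45808 on the same strand, and Cdkn1a 273 with an unconfirmed transcript on the opposite strand. In the human annotation CDKN1A shares 146 with DINOL, a noncoding RNA on the opposite strand, TP53INP1 225 with NDUFAF6 on the opposite strand, MDM2 439 with a processed pseudogene and PHLDA3 598 with a noncoding RNA, both on the same strand. The strand setting used in counting is not given in the sources used here.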

How the data were processed

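Total RNA of 18 libraries was sequenced as stranded paired-end reads. The authors deposited raw counts, 1 table of genes per system. Per the study's methods, the authors aligned reads with STAR 2.6.1b to mm10 or hg19 and counted with HTSeq 0.11.0. The submitters' processing notes also list HISAT2 2.0.4 and featureCounts, with no role given. Each table was fitted on its own with edgeR 4.0.16 in R 4.3.3: filterByExpr (minimum count 10, minimum total 15), TMM factors, and the quasi-likelihood test without covariates, Benjamini-Hochberg adjusted over all genes tested, called under 0.05. CPM values are counts scaled to library size times the TMM factor. The difference between lens and NLPC was an interaction in a joint fit of the genes in both mouse tables. The smallest two-sided p of an exact permutation test is 0.1 here (3 against 3).

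The members and all gene lists were chosen with earlier results of these data known, so list counts are descriptions. All 10 members were described in each system. Of every other list at most 4 genes per system are named, those with the largest change among the called, and Mdm4, Ppm1d, Cdkn2a and Qk are named throughout; 1 further gene of that rule is not reported here. Mgmt, XPC, USP7, TNFRSF10B, BUB1B, PLK1 and CDC25C were named after their values were seen, to complete short counts, as was the interaction of Btg2. Gene coordinates and merged exon lengths came from GENCODE on GRCm38 and GRCh37.

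Deviations from the group means of same-numbered libraries correlated at 0.233, 0.133 and 0.523 in the lens and 0.123, 0.320 and 0.145 in the NLPCs, all above 0.1, so these numbers were taken to pair the libraries, from the data and not from the labels. Libraries with different numbers could correlate as strongly (Ctrl 2 with Qk-iCKO 1 at 0.279, WT 1 with Qk-/- 3 at 0.232). In HLE-B3 they were 0.0613, 0.0566 and −0.0495, and the numbers were not taken as pairs.

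In simulated tables edgeR recovered 19% of changes of 1 and 92% of changes of 2 on the log2 scale in the lens (12049 genes), 60% and 81% in the NLPCs (19458 genes), 85% and 95% in HLE-B3 (18386 genes) and 10% and 65% for the interaction (16037 genes). Alternatives were other size factors, filters, DESeq2 1.42.0, the replicate block, each library left out and an unadjusted threshold.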

Additional observations from a re-analysis of the deposited data

Results flagged for a closer look

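The change of 1 member, Cdkn1a, differed between the lens and the NLPCs in the joint fit with edgeR, an interaction of deletion and system. The NLPC change less the lens change was −4.10 on the log2 scale (adjusted p = 0.00130), a size that depends on the prior count at 3 counts in each Ctrl lens.

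Some members lay beyond all 3 controls in every deletion library of a mouse system and beyond them on the other side in every QKI KO library of HLE-B3. The mouse and human tables were not joined, so these differences were not tested. Between lens and HLE-B3 they were Cdkn1a (4.59 in lens, −0.81 in HLE-B3) and Trp53inp1 (0.68 in lens, not called, and −0.39 in HLE-B3). Between NLPC and HLE-B3 they were Trp53inp1 (0.74 in NLPC, −0.39 in HLE-B3), Bax (−0.47 in NLPC, not called, and 0.42 in HLE-B3) and Mdm2 (0.40 in NLPC, and −0.084 in HLE-B3, not called). The HLE-B3 groups of MDM2 were separated by less than 1 CPM. Groups that did not overlap were common among all genes tested, at 35.3% for lens, 35.2% for NLPC and 44.6% for HLE-B3 in either direction. The share of all genes apart in opposite directions in a mouse system and HLE-B3 was not counted. These members are therefore not shown to exceed a background.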

How the results depend on the processing

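The number of lens members called, 3 of 10, was 1 of 8 when 10 counts were required in every library, a filter that removes Cdkn1a and Gdf15 by its construction, 6 at an unadjusted p under 0.05, and 2 to 5 with each library left out. The 2 called in the NLPCs became 1 when every gene with at least 1 count was tested, where Mdm2 was lost, and 1 to 5 with each library left out. The 4 called in HLE-B3 were 2 to 4 with each library left out, and the 2 of the interaction, Cdkn1a and the term of Gdf15 from which no difference is read, were 1 to 2. With every gene of at least 1 count the interaction gave 3, with Phlda3 added, and the lens 4, with Sesn2 added. The Gdf15 term was lost without WT library 1 or 2, or library 1 or 3 labelled Qk-/- (adjusted p 0.0548 to 0.111). With total counts alone the median log2 change of all lens genes was 0.29 in place of 0.0064, and lens calls were 768 higher and 116 lower in place of 1023 and 473. Over all genes, 1423 interaction calls (535 higher, 888 lower) became 1017 (156 higher, 861 lower) with total counts. The lens calls were 884 with total counts and 2521 with every gene of at least 1 count. With each library left out, calls over all genes were 581 to 1709 in the lens and 681 to 3797 in the NLPCs. They were 4959 to 6036 in HLE-B3 and 872 to 1597 in the interaction.

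Signs turned only for members and controllers that were not called. Lens Mdm2 was −0.0067 with RLE factors, −0.023 with every gene of at least 1 count, −0.049 with the replicate block, −0.027 with DESeq2 and −0.28 to 0.25 with each library left out. With total counts lens Ccng1 was 0.050 and Ppm1d 0.11, and HLE-B3 BBC3 was −0.061 (−0.0090 with 10 counts in every library). In the interaction with total counts Ccng1 was −0.11 and Trp53inp1 −0.19. With each library left out, lens Ccng1 ranged from −0.41 to 0.11, lens Zmat3 from −0.30 to 1.97, NLPC Phlda3 from −0.17 to 0.51, BBC3 from −0.20 to 0.31, ZMAT3 from −0.16 to 0.048, GDF15 from −0.30 to 0.0099 and PPM1D from −0.039 to 0.0013. In the interaction Ccng1 ranged from −0.12 to 0.36, Trp53inp1 from −0.0089 to 0.23 and Zmat3 from −1.65 to 0.69. The cause was not tested.

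With the replicate block, 4 lens members were called (Trp53inp1 joined), 2 in the NLPCs, 4 in HLE-B3 and 2 in the interaction. The pairing changed no other member's call. Over all genes the block gave 1982 lens calls in place of 1496, 2018 NLPC calls in place of 2179 and 1651 interaction calls in place of 1423. Of the controllers, NLPC Mdm4 lost its call (adjusted p = 0.0556). In HLE-B3 the libraries share only a number, and 5901 genes were called with the block in place of 6341. Depth limits Cdkn1a and Gdf15 in Ctrl lenses and Gdf15 in the NLPCs.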
